A study of Mus musculus with 26 samples.

Results

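H3K27me3 CUT&RUN was compared between WT and ATRX knockdown (ATRX KD) mouse embryonic fibroblasts, an adherent connective-tissue cell type. CUT&RUN maps a chromatin mark by cutting and sequencing the DNA next to an antibody-bound protein. The libraries were represented by 4 peak lists, 2 replicate lists for each genotype, with 88420 of the 272147 peaks in the 16 CUT&RUN lists of the series. A WT replicate 1 peak was taken as shared when it overlapped a WT replicate 2 peak by at least 1 bp, which held for 28672 peaks, and the remaining 7339 peaks of that list were not classed. Kept peaks also overlapped both ATRX KD lists and numbered 2402 (8.38% of the shared peaks). Lost peaks overlapped neither ATRX KD list and numbered 23336 (81.4%), and 2934 peaks (10.2%) overlapped a single ATRX KD list. These shares depended on the rule: with an overlap of at least 50% kept peaks were 0.909% and lost peaks 96.5%, and with the WT lists cut to the ATRX KD numbers by q-value, an alternative chosen after seeing the data, they were 33.8% and 44.4%. Gained peaks were in both ATRX KD lists and in neither WT list, and numbered 554 (17.5% of the 3163 ATRX KD replicate 1 peaks shared between the replicates).

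WT cells were female fibroblasts with unaltered ATRX. ATRX KD cells expressed an shRNA against ATRX and were selected with puromycin as a line. ATRXΔRBR cells, used here for reference only, carried a CRISPR deletion of the RNA-binding region in endogenous ATRX and came from a clone. RNA-Seq of WT and ATRX KD cells, with 2 libraries each, and the EZH2 and ATRX peak lists of the same series were set beside the peaks. The paper calls its sequencing replicates biological but does not state how the cultures of a line were separated. The p-values below measure only the spread between these samples. Raw files of the ATRX KD CUT&RUN libraries were named in another form than those of the others, and knockdown and any difference between sequencing runs cannot be told apart.

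H3K27me3, trimethylation of lysine 27 of histone H3, is placed by the Polycomb repressive complex 2 (PRC2), whose catalytic subunit is usually EZH2. It marks silent genes, above all those of developmental transcription factors and signalling ligands with CpG-rich promoters, where it can spread into wide domains, and it also covers the inactive X chromosome of female cells. ATRX is a chromatin remodeller that works with DAXX to deposit histone H3.3, is known for binding repeats such as pericentromeric satellites, and has been connected to PRC2.

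Sequences from a kept, a lost and a gained region are shown first, because the classes differed in base composition and in the kind of DNA they covered. The first 3 are the middle 300 bases of the widest kept peak (at the Hoxc cluster, chr15:103016652-103016951), of the lost peak with the largest fold enrichment (at Hpse2, chr19:43386325-43386624) and of the gained peak with the largest fold enrichment (without a coding TSS, chr6:103649052-103649351). They were read from GRCm38 as provided with RefSeq, on the plus strand, with CpG dinucleotides in capitals.
Hoxc kept peak: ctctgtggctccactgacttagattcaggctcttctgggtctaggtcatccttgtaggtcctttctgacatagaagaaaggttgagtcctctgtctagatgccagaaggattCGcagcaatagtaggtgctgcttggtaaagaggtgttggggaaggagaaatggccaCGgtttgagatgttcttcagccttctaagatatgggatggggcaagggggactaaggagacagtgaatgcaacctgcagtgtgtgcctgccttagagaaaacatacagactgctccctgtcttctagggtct
Hpse2 lost peak: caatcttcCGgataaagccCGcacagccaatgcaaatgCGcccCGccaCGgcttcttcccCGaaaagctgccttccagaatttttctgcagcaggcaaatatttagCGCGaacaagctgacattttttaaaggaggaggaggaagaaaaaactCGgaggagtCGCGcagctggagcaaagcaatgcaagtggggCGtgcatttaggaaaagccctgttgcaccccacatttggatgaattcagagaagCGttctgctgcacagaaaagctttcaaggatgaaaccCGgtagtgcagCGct
Gained peak on chromosome 6: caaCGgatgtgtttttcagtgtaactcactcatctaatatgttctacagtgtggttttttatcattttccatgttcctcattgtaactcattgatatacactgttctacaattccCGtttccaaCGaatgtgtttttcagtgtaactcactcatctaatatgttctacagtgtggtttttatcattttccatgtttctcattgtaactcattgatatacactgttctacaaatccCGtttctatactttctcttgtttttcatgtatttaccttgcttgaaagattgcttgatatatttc
The middle of the Hoxc peak held 2 CpG and that of the Hpse2 peak 15. This order is the reverse of the class medians, which were 13.2 CpG per kb for kept and 6.93 for lost peaks. The gained sequence held 4 CpG at 32.7% GC, and its longest run found at 2 places in the same window was 53 bases, against 7 and 10 in the other two.

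The next 3 are the 250 bases before the RefSeq start of a gene of each class whose RNA changed, printed 5′ to 3′ on the strand of the gene with CpG in capitals. They are Hunk (kept peak, RNA lower in ATRX KD, chr16:90386147-90386396, plus strand), Gucy1a2 (lost peak, RNA higher, chr9:3532099-3532348, plus strand) and Gng2 (gained peak, RNA lower, chr14:19976694-19976943, minus strand).
Hunk: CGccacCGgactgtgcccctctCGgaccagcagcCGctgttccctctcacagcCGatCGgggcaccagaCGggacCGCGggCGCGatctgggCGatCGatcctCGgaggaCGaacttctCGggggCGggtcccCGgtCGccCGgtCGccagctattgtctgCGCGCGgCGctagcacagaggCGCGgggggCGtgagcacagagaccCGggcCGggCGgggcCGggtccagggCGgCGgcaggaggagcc
Gucy1a2: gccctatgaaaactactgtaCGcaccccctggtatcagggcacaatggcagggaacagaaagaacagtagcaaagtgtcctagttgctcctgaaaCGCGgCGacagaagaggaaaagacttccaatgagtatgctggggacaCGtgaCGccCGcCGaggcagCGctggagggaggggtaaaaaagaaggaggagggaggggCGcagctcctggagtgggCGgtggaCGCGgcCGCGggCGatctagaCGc
Gng2: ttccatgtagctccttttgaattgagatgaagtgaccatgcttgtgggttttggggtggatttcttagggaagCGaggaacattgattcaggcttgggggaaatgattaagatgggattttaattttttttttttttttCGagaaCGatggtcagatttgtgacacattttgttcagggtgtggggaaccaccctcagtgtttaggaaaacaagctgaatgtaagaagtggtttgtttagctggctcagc
They held 34, 17 and 3 CpG. Over all coding genes, the median number of CpG in the 250 bases before the annotated TSS was 13 for the 1190 genes at kept peaks, 4 for the 1468 at lost peaks and 7 for the 64 at gained peaks, beside 8 for all 21938 coding genes. Windows with 10 or more CpG made up 61.5% of the kept, 28.7% of the lost and 39.1% of the gained genes, beside 46.0% of all coding genes.

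The ATRX KD lists held fewer and narrower peaks than the WT lists. WT replicates had 36011 and 38832 peaks and ATRX KD replicates 7241 and 6336, a ratio of 0.181 between the means. The length covered differed more, with 103 and 118 Mb in WT and 6.37 and 5.60 Mb in ATRX KD, a ratio of 0.0541. Groups did not overlap in either measure, and the gap between them was larger than the difference between replicates (110.7 ± 10.9 Mb against 5.98 ± 0.547 Mb, SD, n = 2 each). With 2 lists against 2, the exact two-sided permutation test gives p = 0.333 at the lowest, so the design cannot pass 0.05, and both measures were at that value.

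Wide domains were absent from the ATRX KD lists as single peaks. WT lists held 555 and 705 peaks wider than 20 kb, up to 251 and 290 kb, whereas no ATRX KD peak was wider than 7.75 kb. The ATRX KD lists held 2 and 4 peaks wider than 5 kb. Median widths were 1213 and 1267 bp in WT and 741 and 750 bp in ATRX KD. ATRXΔRBR lists, made with the same target, held 38651 and 33105 peaks that covered 147 and 127 Mb, so that their numbers lay closer to WT than to ATRX KD.
The peak calls also differed in kind: the largest −log10 q was 17.2 and 18.7 in the WT lists and 170 and 173 in the ATRX KD lists. The paper gives an approximate range of reads for all samples, but the depth of each library is unknown. The series has no IgG control library of ATRX KD cells. The parts of read depth and of background in the difference between the lists were not tested.

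**Figure D1:**
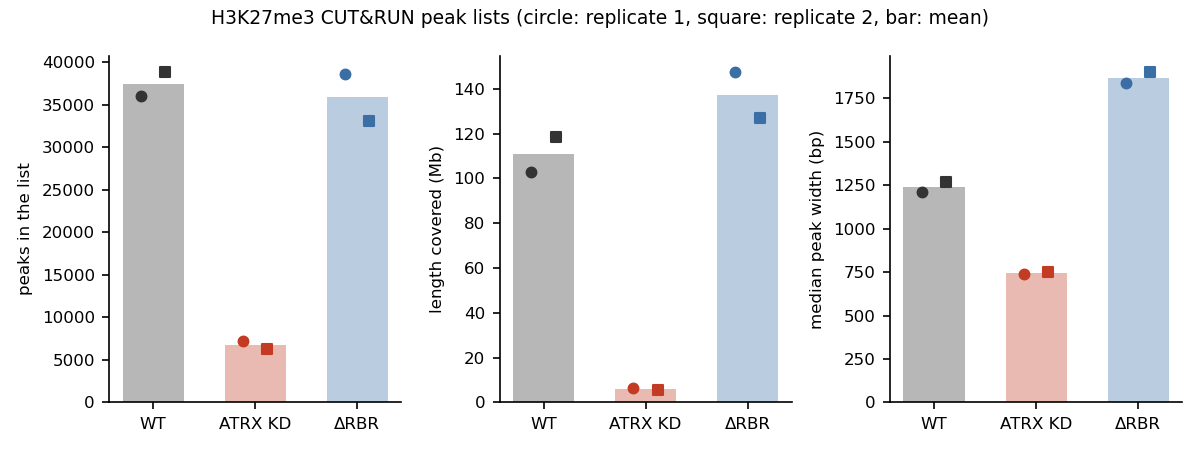
Number of peaks (left), length covered in Mb (middle) and median peak width in bp (right) of the H3K27me3 lists of WT, ATRX KD and ATRXΔRBR cells, with a circle for replicate 1, a square for replicate 2 and a bar for the mean. The ATRX KD lists (7241 and 6336 peaks) lie below all 4 other lists in each panel.

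The remaining ATRX KD peaks were mostly at sites with a WT peak. Of the 3163 replicate 1 peaks shared with replicate 2, 2609 (82.5%) overlapped a WT peak, and of the 4078 found in replicate 1 alone 61.2% did. Agreement between the ATRX KD replicates was itself low, with 43.7% of the replicate 1 peaks in replicate 2, against 79.6% for WT. Near misses of the rule were few at 500 bp, with 121 lost peaks (0.519%) that had an ATRX KD peak that close. Within 5000 bp 2956 lost peaks (12.7%) had one, and the median distance to the nearest was 24884 bp. Without ATRX KD replicate 1 the share kept was 12.9%, and without replicate 2 it was 14.1%. At the other edge, 54 kept peaks shared less than 200 bp with an ATRX KD list.

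Kept peaks were represented in ATRX KD by a small part of their WT extent. The median kept peak was covered to 17% and 16.8% by the ATRX KD lists, to 98.6% by WT replicate 2, and to 82.4% and 76.9% by the ATRXΔRBR lists. Over all kept peaks together, 12.1% and 11.7% of the length was under an ATRX KD peak. At the middle of the WT peak 35.8% and 36.2% of kept peaks had an ATRX KD peak. At 5 kb to its right 2.46% and 2.04% did, where WT replicate 1 still had 40.2%. Only wide peaks reach that distance, so these values do not show where within a domain the remnants lay. The remnants lay more often where EZH2 was in WT cells. EZH2 peaks of WT replicate 1 covered 43.1% and 43.6% of the remaining length and 20.3% of the rest of the kept peaks in both comparisons. Likewise, 36.6% and 37.3% of the remaining length was within 2 kb of a TSS, against 20.3% of the rest. Base composition did not set the remnants apart to the same extent, at 46.9% GC in both lists against 46.8% in the rest, with 17.4 and 17.8 CpG per kb against 16.1.

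**Figure D2:**
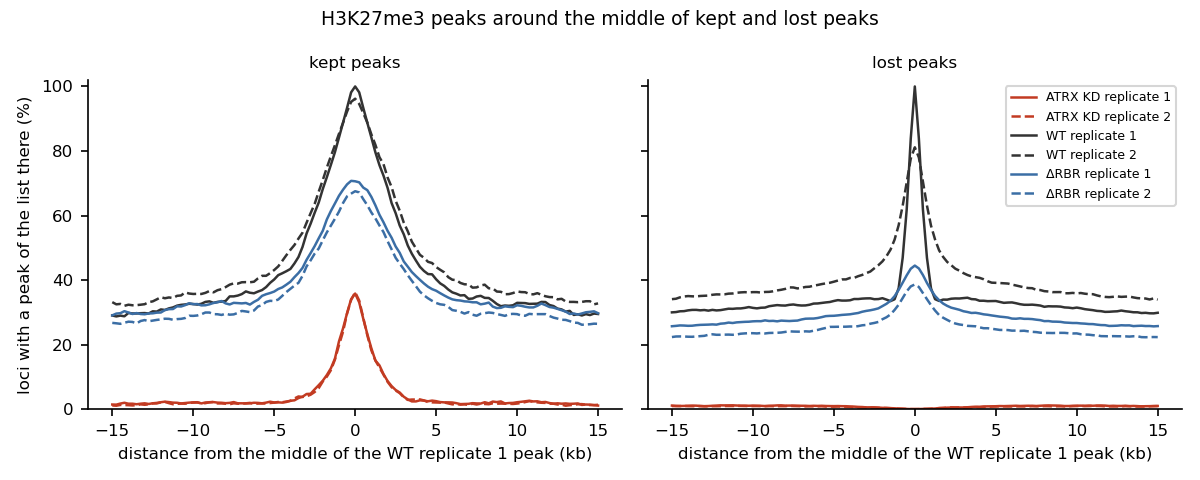
Percent of kept (left) and lost (right) loci with a peak of each H3K27me3 list, plotted by distance in kb from the middle of the WT replicate 1 peak, with solid lines for replicate 1 and dashed lines for replicate 2. In kept loci the ATRX KD lines reach 35.8% and 36.2% at the middle and fall to 2.46% and 2.04% at 5 kb, and in lost loci they are near 0 by the rule.

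Kept and lost peaks also differed in width, place and base composition. The median width in WT was 6053 bp for kept peaks, 3482 bp for peaks in a single ATRX KD list and 1379 bp for lost peaks, beside 1668 bp for all shared peaks. An overlap of 1 bp favours wide peaks, and with an overlap of 50% the order turned, to 1209 bp for kept and 1992 bp for lost peaks. Kept peaks had a median of 46.1% GC and 13.2 CpG per kb, and lost peaks 41.6% and 6.93. Repeat content was alike, at a median of 19.4% and 19.8% of bases. A TSS lay within 2 kb of 54.0% of kept peaks, 26.9% of those in a single list and 14.7% of lost peaks. Their median WT fold enrichment was 4.64, 3.98 and 3.64. Peaks are not replicates of a condition, so no test was made over them.

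The share kept was larger for wider peaks in counts, but not in covered length. Of peaks under 0.5 kb, 1.12% were kept, of those from 2 to 5 kb 8.38%, and of those of 20 kb or more 53.3% (296 of 555). A wide peak offers more bases for an overlap of 1 bp. The length under ATRX KD replicate 1 peaks was 2.2% in the narrowest class, 4.92% at 5 to 10 kb and 3.55% at 20 kb or more, so the widest domains were no better covered than those of middle width.

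EZH2 went with the kept class at each width. Of the peaks with an EZH2 peak in both WT lists, 48.6% (1242 of 2553) were kept, and of those with none 3.96% (993 of 25088). At 20 kb or more, 270 of 400 peaks with EZH2 in both lists were kept (67.5%) and 12 of 99 without EZH2 (12.1%). From 1 to 2 kb the shares were 23.4% and 2.76%. This difference was also present in covered length, at 7.28% and 6.77% with EZH2 in both lists against 2.77% and 2.41% without. By place, 55.2% of TSS peaks and 30.9% of intergenic peaks with EZH2 in both lists were kept, but the TSS peaks were wider (median 7798 against 5495 bp), and in length covered by ATRX KD replicate 1 they were closer, at 7.61% and 6.67%. Without EZH2 the covered length was 2.94% at a TSS and 3.04% between genes. EZH2 itself was listed less often in ATRX KD. Of the kept peaks with EZH2 in both WT lists, 53.9% had EZH2 in both ATRX KD lists and 30.7% in neither. Of the 838 such lost peaks, 12.5% had EZH2 in both ATRX KD lists and 77.7% in neither.

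**Figure D3:**
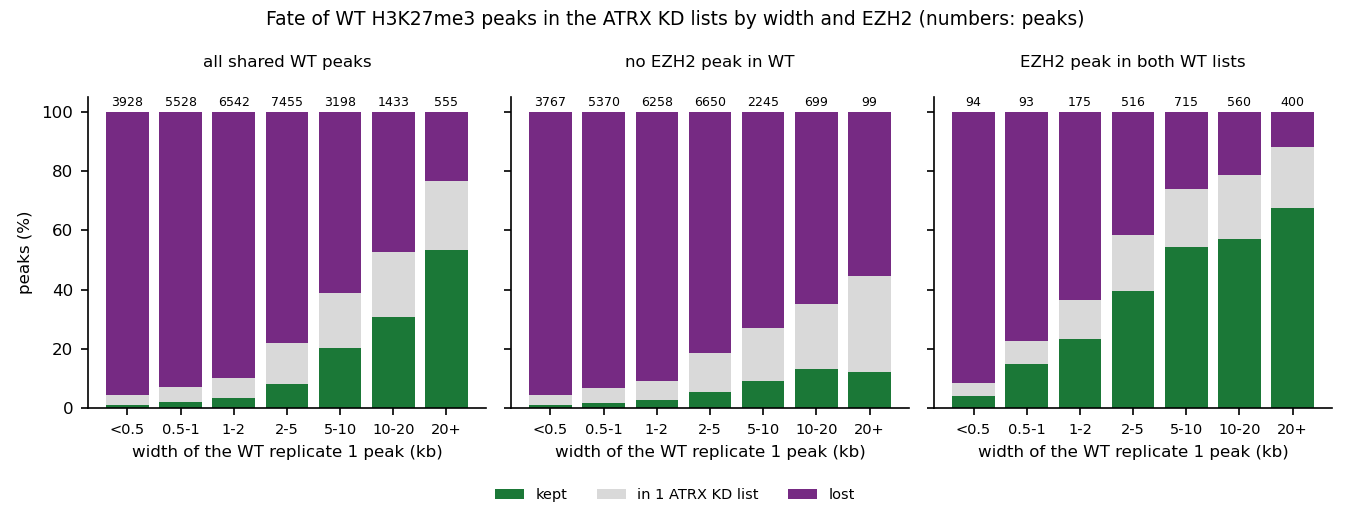
Percent of shared WT H3K27me3 peaks that were kept, in 1 ATRX KD list or lost, by width of the WT replicate 1 peak in kb, for all peaks (left), peaks without EZH2 in WT (middle) and peaks with EZH2 in both WT lists (right), with the number of peaks above each bar. Kept peaks reach 67.5% of the widest class with EZH2 and 12.1% of the widest class without it.

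H3K27me3 in ATRXΔRBR cells differed between the classes. Peaks were in both ATRXΔRBR lists for 80.4% of kept, 70.4% of single-list and 44.5% of lost peaks, beside 50.2% of all shared WT peaks, and for 35.1% of gained peaks. Of the lost peaks, 42.1% were in neither ATRXΔRBR list. ATRX peaks were rare at WT H3K27me3 peaks of any class. At least 1 of the 4 ATRX lists had a peak at 1.5% of kept and 0.210% of lost peaks, beside 0.349% of all shared peaks.

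**Figure D4:**
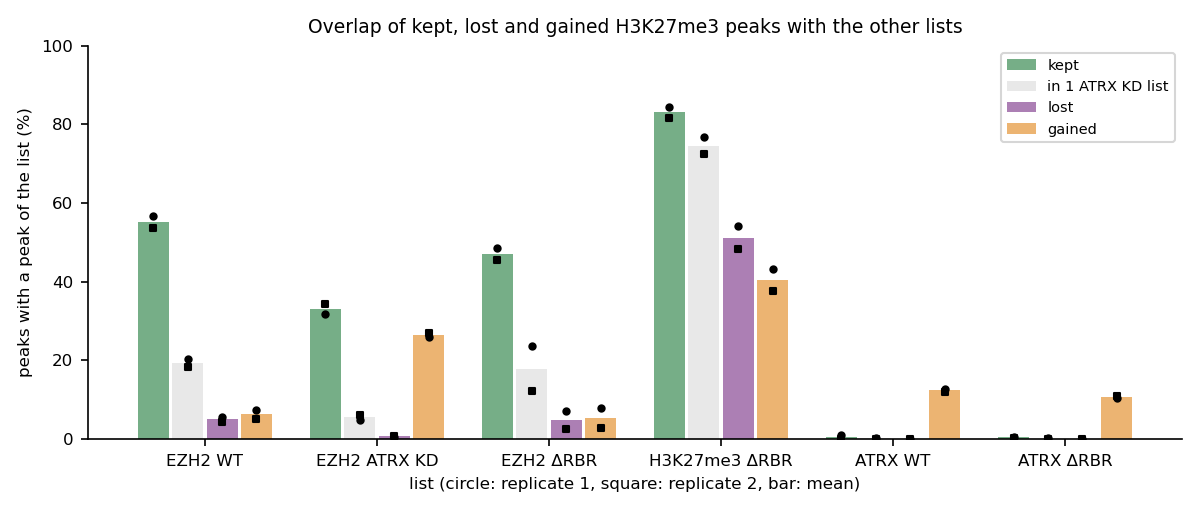
Percent of kept, single-list, lost and gained H3K27me3 peaks that overlap a peak of the EZH2, ATRXΔRBR H3K27me3 and ATRX lists, with a circle for replicate 1, a square for replicate 2 and a bar for the mean. EZH2 of WT replicate 1 overlaps 56.6% of kept and 5.57% of lost peaks, and the bars of the ATRX lists are highest at gained peaks.

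Peaks on the X chromosome were kept less often than those on autosomes. Of 1961 shared X peaks, 39 (1.99%) were kept and 90.9% lost, whereas of 26678 autosomal peaks 2360 (8.85%) were kept and 80.7% lost. No autosome was as low, with shares kept from 5.99% on chromosome 16 to 12.3% on chromosome 4. X peaks were narrower and had EZH2 less often, and the difference was also present within those groups. Of the X peaks with EZH2 in both WT lists 10 of 50 were kept (20%), and of the autosomal ones 49.2%. Without ATRX KD replicate 1 the shares kept were 5.51% on X and 13.4% on autosomes, and without replicate 2 5.56% and 14.8%. At 20 kb or more, 1 of 15 X peaks and 295 of 540 autosomal peaks were kept. In covered length, 1.52% and 1.51% of the X peaks was under ATRX KD peaks, against 4.29% and 3.88% on autosomes. X made up 5.19% and 5.58% of the H3K27me3 length in WT lists and 2.94% and 3.15% in ATRX KD lists.

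Of the 8 widest kept peaks, several were at genes of developmental regulators. The widest lay over the Hoxc cluster (chr15:102891527-103142078, 250.6 kb), whose genes set position along the body axis, with the TSS of 9 coding genes. Each ATRX KD list had 10 separate peaks in it, which together covered 3.96% and 2.72% of its length. The next were at Pax2, a regulator of kidney and eye development (chr19:44717682-44849341, 7 and 6 ATRX KD peaks), and at Mpzl3, a membrane protein of the immunoglobulin family (chr9:44996871-45122624, 2 and 4). Domains at Six6, an eye regulator, and Lbx1, a factor of migrating muscle precursors, followed with 4 and 4 and with 5 and 4 ATRX KD peaks. H2-Q6, a class I histocompatibility gene, and the predicted gene Gm36079 lay in the others with a coding TSS, and the last (chr9:69609440-69694520) had none. All 8 had EZH2 in both WT lists, and in ATRX KD each list had between 2 and 10 short peaks in each of them.

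The 8 lost peaks with the largest fold enrichment were from 0.318 to 38.8 kb wide, and 3 of them had no coding TSS. The first was at Hpse2, a heparanase homologue (chr19:43367068-43405883, 38.8 kb, fold 8.41). Others were at Tbx5, a factor of heart and forelimb (chr5:119817413-119848868, 31.5 kb), Ccnd2, the G1 cyclin D2 (chr6:127144414-127167810, 23.4 kb), Bsx, a brain homeobox factor (chr9:40865007-40898525, 33.5 kb), and Ush1g, a scaffold protein of hair cells (chr11:115312314-115323954, 11.6 kb). All 8 of these peaks had EZH2 in both WT lists, so loss was not limited to sites without EZH2. ATRXΔRBR lists covered the Hpse2 peak to 100% and 99.9%, but the Tbx5 peak to 28.8% and 29% and its neighbour at chr5:119791908-119811357 to 19.5% and 0%.

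In each of 5 gene lists of developmental regulators, more genes were at kept than at lost peaks, whereas of the 21938 coding genes 5.42% had a kept and 6.69% a lost peak at the TSS. The class is that of the whole WT peak. Its ATRX KD peaks can lie outside the TSS window, as at Hoxa9, Hoxa10, Pax2 and Tbx1. Among 39 Hox genes, 24 were at kept peaks, 3 at single-list peaks and none at a lost peak, and many of them share a domain. Among 71 other homeobox and Pax factors, 36 were at kept, 10 at single-list and 8 at lost peaks. Of 46 forkhead, Sox, T-box and GATA factors, 23 were at kept, 9 at lost and 1, Gata3, at a gained peak. The 27 basic helix-loop-helix lineage factors had 14 kept and 2 lost, and the 42 Wnt, BMP, FGF and hedgehog ligands 21 kept and 4 lost. In contrast, of 26 imprinted genes only Igf2 was at a kept peak and 3 (Ascl2, Ndn and Plagl1) were at lost peaks. The 13 PRC2 subunit genes had no H3K27me3 peak at the TSS.

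Gained peaks were narrow and of different kinds. Their number rested on the demand for both ATRX KD lists, with 1720 without ATRX KD replicate 1 and 2137 without replicate 2. Their median width was 765 bp, 17.6% were at a TSS and 2.81% on X, and 25.9% and 27% overlapped an EZH2 peak of the ATRX KD lists. ATRX peaks were at 81 of the 533 gained peaks on assembled chromosomes (15.2%). These 81 had a median ATRX KD fold of 5.17, 97.5% had EZH2 in an ATRX KD list, 1.23% had H3K27me3 in an ATRXΔRBR list, and a median of 51.8% of their bases were repeats. The 452 others had a median fold of 2.92, EZH2 at 15.0% and ATRXΔRBR H3K27me3 at 53.8%. Of 38 gained peaks with a fold of 6 or more, 33 had an ATRX peak, all 38 had EZH2 in ATRX KD, and none had ATRXΔRBR H3K27me3. The ATRX lists are of WT and ATRXΔRBR cells. The largest −log10 q of the EZH2 lists of ATRX KD was 179 and 178, beside 170 and 173 for H3K27me3. A gained peak at the rRNA gene CT010467.1 (chr17:39843103-39848410) was in all 4 ATRX lists. Whether such sites are called with any antibody was not tested.

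The 8 gained peaks with the largest fold were 0.414 to 0.709 kb wide, with folds from 11.5 to 14.5, and none was at a coding TSS. The first (chr6:103648913-103649491) is the repeated sequence printed above. Within 4 Mb of a chromosome start, next to the centromere in mouse, lay 28 gained peaks (5.25%), 10 of them on chromosome 9, against 0.917% of kept and 0.729% of lost peaks. Another 8 gained peaks were placed on Y in this female line, with a median of 91.7% repeats, and repeats made up 50% or more of 165 gained peaks (31.0%). How reads from repeats were assigned to places in the genome was not tested.

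RNA-Seq was then set beside the classes. Library totals were 13320635 and 11856636 estimated counts in WT and 9051693 and 21723647 in ATRX KD. Of 16748 genes tested with edgeR's quasi-likelihood test, 5542 (33.1%) passed a Benjamini-Hochberg adjusted p of 0.05, with 15.2% higher and 17.8% lower in ATRX KD. The number called was 8953 without WT replicate 2, 3520 without ATRX KD replicate 1 and 3194 without ATRX KD replicate 2. For 69.9% of genes the values of the groups in CPM (counts scaled to library size) did not overlap. Atrx itself had 634 and 435 CPM in WT and 411 and 549 CPM in the libraries labelled ATRX KD, which overlapped. The difference was −0.15 ± 0.21 (log2 ± SE) (adjusted p = 0.604, edgeR quasi-likelihood test, Benjamini-Hochberg), and in TPM, which is scaled by the length estimated in each library, Atrx was at 233 and 141 in WT and at 331 and 512 in the libraries labelled ATRX KD. The scales differed in direction: mean CPM was lower in ATRX KD (480 against 535), within the overlap of the groups, and TPM was higher. Neither showed lower Atrx RNA beyond the spread, and ATRX protein was not measured in these files. The paper reports a western blot of ATRX KD cells and describes ATRX as acutely depleted and DAXX protein as decreased. Whether those extracts came from the sequenced cultures is not stated. Daxx, its partner, had 39.2 and 37.9 CPM in WT and 26.4 and 34.5 CPM in ATRX KD (edgeR adjusted p = 0.165).

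Fibroblast markers were abundant in every library, summed to 16258 and 12016 CPM in WT and 16355 and 17610 CPM in ATRX KD, and 3 of 10 tested were higher and 3 lower, beside 18.4% higher and 21.1% lower of all 12778 coding genes tested. Marker sums of other cell types were low, at most 5.46 CPM for epithelial, endothelial, immune, muscle and pluripotent genes in any library. Neural markers summed to between 209 and 241 CPM, within which Sox2, also a stem cell factor, had 48.8 and 37.0 CPM in WT and 0.982 and 0.507 CPM in ATRX KD, while Map2, a microtubule protein of neurons, rose from 40.5 and 58.5 CPM to 109 and 102 CPM. Fewer cells of a type and less RNA per cell cannot be told apart in bulk RNA. Of 12 housekeeping genes 11 were tested, with 1 higher and 5 lower, beside the same shares of all coding genes.

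Most genes at H3K27me3 peaks were silent or nearly so in WT, and many could not be tested. The mean WT level was under 1 TPM (RNA level scaled by gene length) for 80.7% of coding genes at kept peaks, 83.4% at lost peaks and 62.5% at gained peaks, beside 47.7% of all coding genes. Tests covered 410 of 1190 kept, 358 of 1468 lost and 30 of 64 gained coding genes, and a gene could pass the count filter through a single group.

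Most genes tested at lost peaks were not called higher in RNA, although higher calls were more frequent there than over all coding genes. Of the 358 coding genes tested at lost peaks, 96 (26.8%) were higher and 82 (22.9%) lower in ATRX KD, with a median log2 difference of 0.11, beside 18.4% higher, 21.1% lower and a median of −0.03 for all 12778 coding genes tested. Genes at kept peaks leaned the other way, with 58 (14.1%) higher, 123 (30.0%) lower and a median of −0.38. This lean was not present at a mean of 10 TPM or more, with 19 higher and 15 lower of 76. Coding genes with neither a WT nor a gained peak at the TSS had 18.3% higher and 20.5% lower. Among the 459 genes of any type tested at kept peaks, 39 were at 0 in a whole group. A filter of at least 10 counts in each library, which takes out genes that fell to 0 by its construction, left 44 higher and 33 lower. For lost peaks the order of the counts turned when an overlap of 50% was required (178 higher, 213 lower) or a q-value of 0.01 (108 higher, 110 lower).

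The same counts were made by RNA level, taken as the mean TPM of the 4 libraries, which a rise or fall of the gene itself also moves. Between 1 and 10 TPM, 37.3% of the 153 genes at lost peaks were higher, beside 18.8% of all coding genes at that level. Under 1 TPM, 8.08% were higher and 32.3% lower, beside 5.29% and 21% of all. Genes at kept peaks between 1 and 10 TPM were lower for 35.6% and higher for 18.5%. Among kept genes, those with both ATRX KD lists at the TSS window itself were lower for 97 of 304 (31.9%), and those with neither for 14 of 70 (20%).

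**Figure D5:**
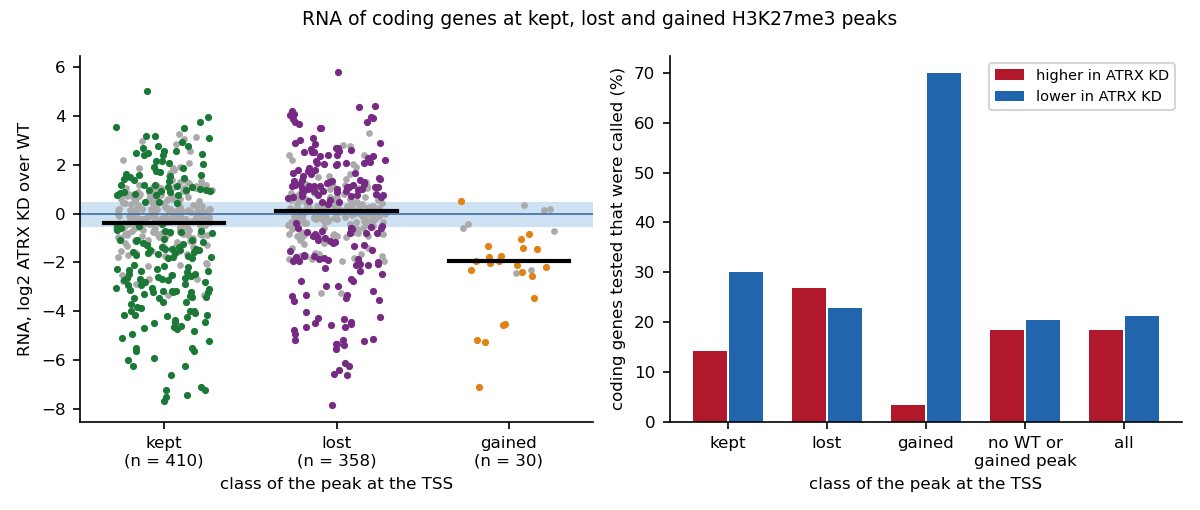
Left, log2 difference in RNA (ATRX KD over WT) of each coding gene tested at kept, lost and gained peaks, with called genes in colour, the class median as a black bar and the quartiles of all coding genes tested as a blue band; genes at 0 in a group are set at their bound. Right, percent of coding genes tested that were higher or lower, where lower genes reach 70.0% at gained peaks and 21.1% over all.

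The share of lower genes at gained peaks was above that of all coding genes (21.1%). Of 30 coding genes tested, 21 (70.0%) were lower and 1 (3.33%) higher, with a median log2 difference of −2.08 (−1.94 with genes at 0 set at their bound). Lower calls made up 8 of 11 genes under 1 TPM, 7 of 11 between 1 and 10 TPM and 6 of 8 above. With a single ATRX KD list to set the class, 44 genes of any type were lower and 5 higher without replicate 1, and 50 and 7 without replicate 2, beside 22 and 2 with both. Without 4 predicted genes of satellite-like repeats, 17 of 26 were lower. The 21 lower genes had EZH2 in an ATRX KD list at 12 and in a WT list at 7. They had an ATRX peak at 5, among them the 4 predicted genes, and ATRXΔRBR H3K27me3 at 5. For the 9 coding genes not lower, the same counts were 4, 3, 0 and 5.

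Cell cycle and signalling genes were among them. Ccnd1, the G1 cyclin D1, had 134 and 120 CPM in WT and 45.1 and 46.6 CPM in ATRX KD, beside a gained peak at chr7:144938631-144939564. The groups were far apart relative to their spread, with a log2 difference of −1.47 ± 0.13 (SE) and an adjusted p of 0.00046 (edgeR quasi-likelihood test, Benjamini-Hochberg). Kitl, the ligand of the Kit receptor, had 39.5 and 46.6 CPM in WT and 17.2 and 16.8 CPM in ATRX KD (log2 −1.34 ± 0.15). Both genes were chosen for naming after their values were seen. H2afy2, which encodes the histone variant macroH2A2, went from 76.5 and 68.6 CPM to 35.6 and 35 CPM, and Oaf from 64.5 and 46.8 CPM to 14 and 11.8 CPM; they too were picked after their values were seen. Gng2, a G protein gamma subunit, had 6.67 and 4.77 CPM in WT and 0 and 0.0461 CPM in ATRX KD, a ratio of 178 (95% counting interval 31.4 to 7063). Gfra1, a receptor of the GDNF family, fell by 2.31 ± 0.46 on the log2 scale. Gm10717, Gm10800 and Gm10801, predicted genes of repeated sequence whose counting is uncertain, also fell, and Gm10800 differed between the WT libraries (1.61 and 19.6 CPM). The only coding gene higher was Bend3, a BEN-domain chromatin protein, with 21.5 and 23.6 CPM in WT and 30.8 and 33.4 CPM in ATRX KD.

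The largest falls at kept peaks ended at 0 in both ATRX KD libraries. Pde3b, a cyclic nucleotide phosphodiesterase, had 31.5 and 39.1 CPM in WT and 0 in both ATRX KD libraries, at least 152-fold lower against a floor of 3 counts per library. Hunk, a protein kinase, was at least 76.2-fold lower and Bhlhe22, a neuronal helix-loop-helix factor, at least 45.4-fold. Prdm6, a repressor in smooth muscle, was at least 21.6-fold lower and Osr2, a zinc finger factor of palate and limb, at least 18.9-fold lower. All 5 kept a peak of both ATRX KD lists at the TSS. Rises at kept peaks were led by Soga3 (0 in both WT libraries, at least 11.5-fold higher), Vax2, an eye homeobox factor, Ap1g2, a clathrin adaptor subunit (0.613 and 0.586 CPM against 8.08 and 6.18 CPM), Isl2, a motor neuron factor, and Lyn, a Src-family kinase (1.84 and 0.920 CPM against 11.2 and 10.2 CPM). Of these, Soga3 and Lyn had ATRX KD peaks at the TSS and for the others the ATRX KD peaks lay in the kept peak outside the TSS window.

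Genes at lost peaks moved in both directions by as much. Hapln4, a link protein of the hyaluronan matrix, had 0.920 and 0.753 CPM in WT and 18.9 and 17.3 CPM in ATRX KD, a log2 difference of 4.41 ± 0.25 (adjusted p = 0.000113, edgeR quasi-likelihood test, Benjamini-Hochberg). Ago4, an Argonaute protein, rose by 4.09 ± 0.32 and Prrt4 by 4.05 ± 0.38 on that scale. Gucy1a2, a subunit of soluble guanylate cyclase, had 0 and 0.0836 CPM in WT and 2.73 and 2.72 CPM in ATRX KD, and Fbxw19 0.153 and 0 CPM against 2.73 and 1.15 CPM. The falls ended at 0 in both ATRX KD libraries, although the peak was gone. Gnai1, an inhibitory G protein alpha subunit, was at least 76.3-fold lower, Kcnip1, a potassium channel partner, at least 69.5-fold, Irx1, an Iroquois factor, at least 37.0-fold, the X-linked LIM protein gene Fhl1 at least 36.2-fold and Gng11, a G protein gamma subunit, at least 30.9-fold. Ccnd2, at a top lost peak, went from 4.75 and 3.26 CPM to 0 and 0.0461 CPM, a ratio of 125 (95% counting interval 21.9 to 4968). The intervals and floors cover counting error only.

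Among the developmental lists, calls are given beside the 18.4% higher and 21.1% lower of all coding genes tested. Of the Hox genes 18 were tested, with 2 higher and 3 lower, which is not above those shares. Hoxa9 had 5.67 and 6.02 CPM in WT and 0.109 and 0 CPM in ATRX KD, and Hoxb7 22.7 and 19.2 CPM against 13.1 and 14.4 CPM. Both were at kept peaks. At Hoxb7 both ATRX KD lists had a peak in the TSS window, and at Hoxa9 neither did. Other homeobox and Pax factors had 9 higher and 8 lower of 32 tested, forkhead, Sox, T-box and GATA factors 1 and 9 of 26, basic helix-loop-helix factors 0 and 3 of 4, and ligands 4 and 4 of 17. In the forkhead group, Sox2 at a kept peak fell by 6.0 ± 0.31 on the log2 scale, and Gata2, a blood and endothelial factor, had 11.7 and 7.03 CPM in WT and 3.60 and 3.55 CPM in ATRX KD. Imprinted genes had 6 higher and 4 lower of 15 tested.

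Genes of the enzymes themselves are also given beside the shares of all coding genes tested (18.4% higher, 21.1% lower). Of 13 PRC2 genes, 3 were higher and 5 lower. Ezh2 rose from 146 and 137 CPM to 185 and 181 CPM (log2 0.37 ± 0.11), while Eed, the subunit that reads H3K27me3, fell by 0.54 ± 0.15, Mtf2, an accessory subunit, by 0.78 ± 0.11, and Rbbp7, a histone-binding subunit, by 0.47 ± 0.12 on the log2 scale. Of 19 PRC1 genes, 2 were higher and 5 lower, with Bmi1 among the lower (138 and 146 CPM against 111 and 101 CPM). Of 6 H3K27 demethylase and H3K36 methyltransferase genes 2 were higher, Setd2 and Nsd1, whose marks oppose PRC2. Of 7 ATRX partner and H3.3 genes 3 were higher and 1 lower. Of 6 genes of the Ink4 and p53 pathway 4 were lower and none higher, among them Cdkn2a (660 and 375 CPM against 263 and 287 CPM) and Cdkn1c, an imprinted cell cycle inhibitor (20.8 and 16.1 CPM against 0 and 0 CPM). None of these had an H3K27me3 peak of the kept or lost class at the TSS, except Cbx8 (kept) and Phc2 (lost) of PRC1.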

How the data were processed

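H3K27me3 CUT&RUN of WT and ATRX KD fibroblasts was analysed from peak lists, with EZH2, ATRX and ATRXΔRBR lists and RNA-Seq of the same series beside it. Bowtie2 alignment to mm10 and MACS2 broad peak calling, per library at a cutoff of 0.1, were done by the authors. The control used is not given in the sources used here. The deposited fold enrichment is a ratio of reads over the local background, the deposited −log10 p and −log10 q come from MACS2, and the deposited score is a rescaled −log10 q that was not used. Neither was compared peak by peak across lists. The antibody is given differently in the labels and in the study's antibody list. The series holds IgG control libraries of WT and ATRXΔRBR cells but not of ATRX KD cells, and they were not analysed here.

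RNA-Seq reads were aligned by the authors with STAR, and the deposited estimated counts are from RSEM, with TPM and FPKM values also computed by the authors. FPKM was not used. Estimated counts were rounded. Genes whose counts over the 4 libraries summed to over 10 were tested in edgeR 4.0.16 (R 4.3.3) with TMM normalization, the quasi-likelihood test and Benjamini-Hochberg adjustment, without a replicate block. The replicate differences of WT and ATRX KD in RNA-Seq had a correlation of −0.0724 over genes. This cannot settle whether same-numbered samples were paired, and pairing is not stated.

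Overlap was counted from 1 bp. A TSS window was 2 kb on each side, with 55413 GENCODE M21 genes on 21 assembled chromosomes of GRCm38. Off these chromosomes lay 3 kept, 27 lost and 21 gained peaks, which were left out of feature values. A gene took the class of the peak at its TSS in the order kept, single-list, lost. Gained genes had no WT peak there. The members and gene lists were chosen with earlier results of these data known. Named genes were those at the 8 widest kept and the 8 strongest lost and gained peaks, the 5 largest rises and 5 largest falls per class with a mean of at least 1 TPM, and the most abundant called members of each gene list. Alternatives were other overlaps, q-values, joined peaks, TSS windows, count filters, scalings, DESeq2 1.42.0, a replicate block and leaving out each library. Floors were 3 counts per library and intervals 95%. Peaks were processed with Python 3.11.15, pandas 2.3.3, numpy 2.4.6 and pysam 0.24.0, and the scripts were tested on simulated data.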

Additional observations from a re-analysis of the deposited data

How the results depend on the processing

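The direction of the H3K27me3 difference held in the alternatives run, while the shares moved. The ratio of peak numbers, ATRX KD over WT, was 0.181. It became 0.0968 at a q-value of 0.01 and 0.341 with peaks closer than 3 kb joined. The ratio of covered length was 0.0541 and became 0.0171 and 0.0469 in that order. Kept peaks were 8.38% of the shared WT peaks and became 0.909% with an overlap of 50%, 3.77% at a q-value of 0.01, 15.6% with peaks closer than 3 kb joined and 9.38% starting from replicate 2. Lost peaks were 81.4% and became 96.5%, 88.1%, 68.5% and 79.5% in that order. With WT lists cut to the number of ATRX KD peaks, chosen after seeing the data, kept peaks were 33.8%, lost peaks 44.4% and gained peaks 1143. Same-numbered lists were also compared (replicate block), over all peaks of a WT list rather than the shared ones. As means over the replicates, 11.0% of WT peaks overlapped an ATRX KD peak, 89.0% did not, and 2172 ATRX KD peaks overlapped no WT peak. Leaving out each list in turn, kept peaks ranged from 6.46% to 14.1%, lost peaks from 84.4% to 87.1% and gained peaks from 623 to 2137, with 1720 without ATRX KD replicate 1 and 2137 without replicate 2. Gained peaks numbered 170 at a q-value of 0.01 and 471 without peaks at WT ATRX peaks, the latter chosen after seeing the data. Kept peaks were at a TSS and at EZH2 peaks more often than lost peaks, and X peaks were kept less often than autosomal ones, in each alternative computed for these values, which leave out the replicate block. The width order of kept and lost peaks turned with an overlap of 50%.

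RNA calls numbered 5542 and depended on single libraries: 7944 without WT replicate 1, 8953 without WT replicate 2, 3520 without ATRX KD replicate 1 and 3194 without ATRX KD replicate 2, where the lone sample is assumed to vary like the other group. The replicate block gave 5796 calls. It ended 5 of the 77 calls of named genes, against 23 without ATRX KD replicate 1, 24 without replicate 2, 7 with the DESeq2 Wald test and 6 with all 6 libraries in the fit. At kept peaks, calls higher and lower were 4 and 8 with an overlap of 50%, and 25 and 32 at a q-value of 0.01. With at least 10 counts in each library the lower calls were 33 at kept, 30 at lost and 9 at gained peaks. At lost peaks, an overlap of 50% gave 178 higher and 213 lower. At gained peaks the 2 higher calls became 0 with the DESeq2 Wald test, 1 with an overlap of 50%, 0 at a q-value of 0.01 and 1 with a TSS window of 1 kb, and the 22 lower calls became 8 at that q-value. Leaving out each library or list in turn gave 0 to 7 higher and 20 to 50 lower calls at gained peaks. The read depth of each CUT&RUN library is unknown beyond the paper's approximate range for all samples, which limits each statement on absent peaks.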
